A study of Rattus norvegicus with 36 samples.

Results

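Sphingolipid metabolism genes are the genes whose products build, convert, transport and degrade ceramide and the lipids made from it. A set of 43 such genes was chosen by known function, out of 24773 genes in the count table of ileum and colon from UCD-T2DM rats. No measured value entered the list, but earlier results of these data were known when it was chosen. Of the 43 genes, 15 belong to de novo ceramide synthesis, 8 to the making and breakdown of sphingomyelin, 12 to ceramide breakdown and sphingosine 1-phosphate, 2 to glycosphingolipid synthesis and 6 to breakdown in the lysosome.

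Ceramide is assembled in the endoplasmic reticulum from serine and a fatty acyl chain, and is then turned into sphingomyelin or glycosphingolipids, phosphorylated, or cleaved to sphingosine. Sphingosine kinases turn sphingosine into sphingosine 1-phosphate, a signal for immune and endothelial cells. The small intestine also digests dietary sphingomyelin at the brush border, where alkaline sphingomyelinase and neutral ceramidase act in turn on the lumenal lipid.

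UCD-T2DM rats carry several risk alleles and develop type 2 diabetes on their own. RNA-seq libraries were made from whole distal ileum and whole proximal colon of 18 male rats, so that 36 libraries were available, 1 per rat and tissue. The 6 ND rats were not diabetic and 70 days old, the 6 D1M rats were 168 to 172 days old and had been diabetic for 22 to 23 days, and the 6 D3M rats were 172 to 173 days old and had been diabetic, without treatment, for 88 to 116 days. The labels write PD, RD and D3M for these groups in 1 field and ND, RD and LD in another. ND rats came from the same colony as the diabetic rats, and no lean strain was included. Age, diabetes and litter cannot be told apart between ND and D3M rats, because the ND rats were younger and came from other litters. All D3M rats shared 1 birth date, and 5 of the 6 D1M rats were born 4 days later.

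Library totals were 12279059 to 21510043 counts in ileum and 10024041 to 18299050 counts in colon. The tissue labels were checked against marker transcripts. Markers of ileal epithelium summed to 12002 CPM (a gene's counts scaled to the size of its library, by the TMM method within each tissue) in the colon sample of ND rat K4028 and to 198 to 644 CPM in the other 17 colon libraries. Markers of colonic epithelium summed to 4566 CPM in the ileum library of ND rat K4040 and to 300 to 2140 CPM in the other 17 ileum libraries. Both are called the 2 cross-tissue libraries, and results that rest on them are given with and without them. The sequencing flow cell was a term in every model, because D3M ileum libraries were on flow cells 1 and 3 only and D3M colon libraries on flow cells 2 and 3 only. In these bulk samples, fewer cells of a type and less RNA per cell cannot be told apart.

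The promoters shown are those of the 3 genes that differed between D3M and D1M rats in ileum. Each sequence runs from 250 bases before to 50 bases after the start site in RefSeq annotation of the GRCr8 build, and capitals mark matches to the motifs searched. Samd8 is read from the minus strand of chr15:2607003-2607302, Sptlc3 from the plus strand of chr3:147301320-147301619 and Enpp7 from the plus strand of chr10:104740513-104740812.
Samd8: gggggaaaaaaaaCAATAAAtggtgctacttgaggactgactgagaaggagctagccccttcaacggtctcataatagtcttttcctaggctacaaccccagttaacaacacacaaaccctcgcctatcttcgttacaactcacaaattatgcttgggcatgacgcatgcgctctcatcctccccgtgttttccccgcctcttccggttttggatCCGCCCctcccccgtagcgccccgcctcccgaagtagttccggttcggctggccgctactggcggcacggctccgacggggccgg
Sptlc3: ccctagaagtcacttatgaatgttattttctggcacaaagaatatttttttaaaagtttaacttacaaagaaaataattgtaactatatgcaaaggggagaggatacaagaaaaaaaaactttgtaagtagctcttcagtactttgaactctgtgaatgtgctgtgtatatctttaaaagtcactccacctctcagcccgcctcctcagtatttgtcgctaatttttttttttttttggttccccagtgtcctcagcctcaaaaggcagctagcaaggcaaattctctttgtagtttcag
Enpp7: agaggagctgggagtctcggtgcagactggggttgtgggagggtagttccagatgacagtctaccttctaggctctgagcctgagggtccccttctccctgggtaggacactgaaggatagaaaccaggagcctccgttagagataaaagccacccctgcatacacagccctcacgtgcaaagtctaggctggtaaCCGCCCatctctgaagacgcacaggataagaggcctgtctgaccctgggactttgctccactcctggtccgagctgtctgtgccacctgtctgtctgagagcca
The GC content was 56.3% for Samd8, 35.7% for Sptlc3 and 57.0% for Enpp7, against a median of 52.3% over 27457 promoters. Of the 43 genes, 35 had a promoter in the table, with a median GC content of 64.0%. For these, 6 motifs were searched on both strands, the TATA box (TATAAA), the CCAAT box (CCAAT), the GC box (GGGCGG), a CDX motif (TTTATNG), an HNF4 motif (CAAAGTCCA) and a sterol response element (TCACCCCAC). The GC box was found in 25 of the 35 promoters (71.4%) and in 34.9% of all promoters. Samd8 and Enpp7 each held 1 GC box, at positions -35 and -54 from the start site. The CDX motif was found in 1 of the 35 promoters (2.86%), that of Samd8 at position -237, and in 11.2% of all promoters. None of the 35 promoters held the TATA box, found in 14.3% of all promoters, or the sterol response element, found in 0.495%. The CCAAT box was found in 28.6% of the 35 and 37.7% of all promoters, and the HNF4 motif in Sptlc1 alone (2.86%) and in 0.375% of all. The Sptlc3 promoter held none of the 6 motifs. A match is a run of letters and not a measured binding site.

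Expression was compared in ileum first, between D3M and ND rats. Transcripts of 9 of 42 sphingolipid genes rose and 2 fell at a false discovery rate (FDR) below 0.05, by the quasi-likelihood test of edgeR with Benjamini-Hochberg adjustment over all genes. The 11 called genes were 26.2% of those tested, against 12.5% of 13026 genes tested in ileum. By direction, 8.31% of all genes rose and 4.22% fell. The genes that rose were Samd8, Sptlc2, Cers2, Smpd2, Sphk1, Sphk2, Sgpl1, Spns2 and St3gal5, and those that fell were Degs1 and Acer2. The median log2 fold change was 0.16 over the 42 genes and -0.08 over all genes tested. Cers3, a ceramide synthase for ultra-long chains, was too low to be tested in either tissue.

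With only the libraries of D3M and ND rats in the model, 1 of the 11 calls remained, that of Samd8 (FDR 0.0129), and 1.46% of all genes were called. With RLE size factors in place of TMM the split was 12 higher and 1 lower. Without the ileum library of D1M rat K3986 the count was 6, with 5.13% of all genes called. Without that of D3M rat K3959 it was 17, with 16.5% of all genes called. Without the 2 cross-tissue libraries it was 8. The shares of all genes called with RLE size factors and without these libraries are not given here. Whether these 2 counts moved with all genes therefore cannot be read from them. Markers of enterocytes moved with the same groups. They summed to 15117 to 22733 CPM in ND, 20379 to 26038 CPM in D1M and 27391 to 35272 CPM in D3M ileum. The sum weighs the most abundant markers. The mean of log2(CPM + 1) over the same 11 markers overlapped between groups. It was 9.39 to 9.92 in ND, 9.78 to 10.11 in D1M and 9.76 to 10.42 in D3M ileum. Between D3M and ND rats 7 of 11 markers rose. The ileal epithelial list (7 genes) rose in 6, with a median log2 fold change of 0.87. Of the other lists, 1 of 4 colonic markers (Car4, log2 fold change 1.48), 0 of 10 B cell markers and 0 of 7 smooth muscle markers rose. The summed B cell markers set libraries apart within groups. They were above 100 CPM in 3 ND libraries (428 to 854 CPM), 2 D1M libraries (429 and 572 CPM, the latter of rat K3986) and 1 D3M library (283 CPM, rat K3959), and between 2.95 and 17.2 CPM in the other 12. With the B cell marker level as a term in the model, 11 of the 42 sphingolipid genes rose and 3 fell, with 14.6% of all genes called. The part of these cell types in the sphingolipid results was not tested.

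**Figure D1:**
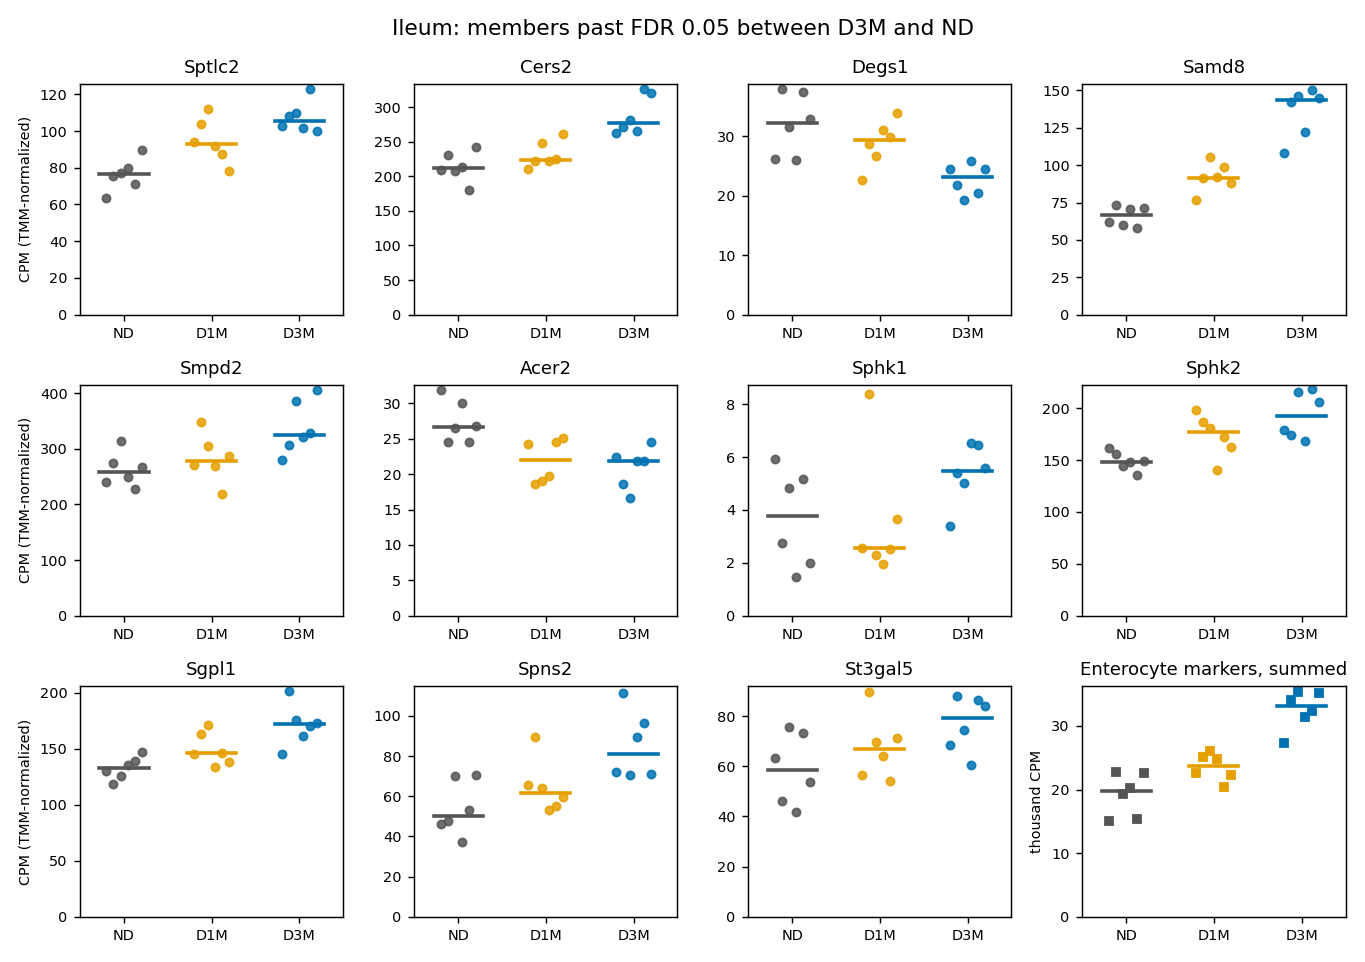
Level of each of the 11 genes past FDR 0.05 between D3M and ND ileum, in TMM-normalized CPM (y axis, from 0), with 1 point per library, a bar at the group median and 6 libraries per group. The last panel gives the summed CPM of 11 enterocyte markers, divided by 1000. Samd8 separates all 3 groups, whereas Smpd2, Sphk1 and St3gal5 overlap between groups.

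De novo synthesis begins with serine palmitoyltransferase, an enzyme of Sptlc1 with either Sptlc2 or Sptlc3. Sptlc2 had 63.6, 76.4 and 89.9 CPM (lowest, median and highest library) in ND ileum, 78.4, 93.02 and 112 CPM in D1M and 100 to 123 CPM with a median of 105 CPM in D3M. All 6 D3M libraries lay above all 6 ND libraries. The D3M level was 1.40-fold that of ND (log2 fold change 0.49, SE 0.11, edgeR FDR 0.00933). Sptlc1, the shared subunit, had a log2 fold change of -0.02 (SE 0.08, edgeR FDR 0.866).

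Cers2 makes ceramides with very long acyl chains and is a major ceramide synthase of many tissues. Its ileal level ran from 181 to 243 CPM in ND (median 212), from 211 to 261 in D1M (median 224) and from 262 to 327 in D3M (median 277). The D3M libraries lay above those of both other groups. Cers2 rose by a log2 fold change of 0.40 between D3M and ND (SE 0.10, edgeR FDR 0.0144). Cers2 overlaps Setdb1 on the other strand by 1120 bases, and the sources used here do not state whether reads were counted by strand.

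Degs1 inserts the double bond that turns dihydroceramide into ceramide. Its level was 26.1, 32.3 and 37.9 CPM in ND ileum (lowest, median, highest), 22.6, 29.3 and 34.0 CPM in D1M and 19.3, 23.1 and 25.9 CPM in D3M. All D3M libraries lay below all ND libraries. Degs1 fell by 0.41 on the log2 scale (SE 0.13, edgeR FDR 0.0469), close to the threshold. Degs2, which also adds a hydroxyl group to make phytoceramide, had a log2 fold change of 0.33 (edgeR FDR 0.0572).

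The other genes of de novo synthesis did not pass. Ormdl3, one of the proteins that restrain serine palmitoyltransferase, had a log2 fold change of 0.75 (SE 0.24, edgeR FDR 0.0539), whereas Ormdl1 and Ormdl2 had 0.17 and 0.13. Kdsr, the reductase after serine palmitoyltransferase, had 0.06. The ceramide synthases Cers1, Cers4, Cers5 and Cers6 had -0.25, -0.23, -0.28 and 0.36. Cers1 shares its counts with Gdf1, which lies on the same strand and had the same total of 1418 counts over 36 libraries, so its value is uncertain. In all, 2 of 14 tested genes of this step rose and 1 fell, against 8.31% of all genes that rose and 4.22% that fell.

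Among sphingomyelin genes, 2 of 8 rose, against 8.31% of all genes. Samd8 encodes SMSr, a sphingomyelin synthase relative of the endoplasmic reticulum that makes ceramide phosphoethanolamine and lies on chromosome 15 from 2685511 to 2731462 in the rn6 build. In ND ileum its level was 58.1, 66.3 and 73.2 CPM (lowest, median, highest). It was 76.9, 91.7 and 106 CPM in D1M, and 108, 144 and 150 CPM in D3M. The 3 groups did not overlap in any pair. Samd8 was 2.00-fold higher in D3M than in ND (log2 fold change 1.00, SE 0.11, edgeR FDR 0.000402), and this call held in 28 of 28 alternative fits. Within flow cell 3, which held 2 D3M and 2 ND ileum libraries, the difference was 1.14 on the log2(CPM + 1) scale. Of these ND libraries, that of rat K4040 is cross-tissue. Within flow cell 1, with 4 D3M and 1 ND libraries, the difference was 0.84.

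Smpd2 is a neutral sphingomyelinase. Its level ran from 227 to 313 CPM in ND (median 258), from 219 to 348 CPM in D1M (median 278) and from 279 to 406 CPM in D3M (median 324), and the groups overlapped. It rose by a log2 fold change of 0.49 (SE 0.12, edgeR FDR 0.0190). Smpd2 overlaps Mical1 on the other strand by 39 bases. Sgms1 and Sgms2, the sphingomyelin synthases of the Golgi and the plasma membrane, had log2 fold changes of 0.25 and 0.47 that did not pass (edgeR FDR 0.141 and 0.0700). Smpd3, another neutral sphingomyelinase, had 0.25 (edgeR FDR 0.0522), the acid enzyme Smpd1 did not pass (edgeR FDR 0.977) and Smpd4 had -0.31 (edgeR FDR 0.182). Enpp7 is described with D3M and D1M rats.

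In ceramide breakdown and sphingosine 1-phosphate, 4 of 12 genes rose and 1 fell, against 8.31% and 4.22% of all genes. Acer2, an alkaline ceramidase of the Golgi, had 24.6, 26.7 and 31.9 CPM in ND ileum, 18.7, 22.0 and 25.1 CPM in D1M and 16.7, 21.9 and 24.6 CPM in D3M. All D3M libraries lay below all ND libraries. Acer2 fell by 0.44 on the log2 scale (SE 0.10, edgeR FDR 0.0105). The other ceramidases Asah1, Acer1 and Acer3 had 0.10, -0.25 and 0.08. Asah2, the neutral ceramidase of the brush border, had 1.08 with a wide error (SE 0.39, edgeR FDR 0.0782).

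Sphk1 and Sphk2 phosphorylate sphingosine. Sphk1 was low, at 1.47, 3.78 and 5.94 CPM in ND, 1.97, 2.56 and 8.39 CPM in D1M and 3.39, 5.49 and 6.54 CPM in D3M ileum. The groups overlapped, and 1 D1M library (rat K3986) lay above all others. The log2 fold change of Sphk1 between D3M and ND was 1.20 (SE 0.34, edgeR FDR 0.0322), and it was 0.98 (FDR 0.127) without the library of rat K3986. Without the flow cell term it was 0.55 (SE 0.37, edgeR FDR 0.277), so that the size and the call rest on that term. Sphk2 had 135, 148 and 162 CPM in ND, 140, 177 and 199 CPM in D1M and 168, 192 and 218 CPM in D3M. The D3M and ND libraries of Sphk2 did not overlap, and it rose by 0.42 (SE 0.10, edgeR FDR 0.0124).

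Sgpl1 is the lyase that ends the pathway by cleaving sphingosine 1-phosphate. It had 119, 133 and 147 CPM in ND, 133, 146 and 172 CPM in D1M and 145, 172 and 202 CPM in D3M ileum. D3M and ND overlapped at their edges, and Sgpl1 rose by 0.35 on the log2 scale (SE 0.10, edgeR FDR 0.0313). Spns2 exports sphingosine 1-phosphate from cells. It had 37.3, 50.4 and 70.4 CPM in ND, 53.2, 61.8 and 89.7 CPM in D1M and 70.7, 80.9 and 111 CPM in D3M. The D3M libraries lay above all ND libraries, and Spns2 was 1.72-fold higher (log2 fold change 0.79, SE 0.18, edgeR FDR 0.0120). Spns2 overlaps Mybbp1a on the other strand by 476 bases. The phosphatases Sgpp1 and Sgpp2 and ceramide kinase Cerk had 0.17, 0.09 and 0.20, none past the threshold.

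St3gal5 makes GM3, the first ganglioside. Its level was 41.7, 58.6 and 75.6 CPM in ND ileum, 54.3, 66.9 and 89.6 CPM in D1M and 60.6, 79.2 and 88.1 CPM in D3M, with overlap between all groups. It rose by 0.60 on the log2 scale (SE 0.16, edgeR FDR 0.0206). Ugcg, which makes glucosylceramide, had 0.38 (edgeR FDR 0.0631). No lysosomal gene of 6 passed, against 12.5% of all genes. Galc, Glb1, Hexa, Gm2a, Psap and Arsa had log2 fold changes from -0.45 (Galc) to 0.14 (Glb1).

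Several of the 11 calls were lost when 1 ileum library was left out. Degs1 was lost in 13 of 18 such fits, with a highest FDR of 0.130 without D1M rat K3986. The other 12 were those without K3988 (0.0653), K3989 (0.0648), K3961 (0.0780), K3977 (0.0815), P762 (0.110), P780 (0.0509), K4028 (0.0581), K4037 (0.0581), K4038 (0.0554), K4040 (0.0589), K4047 (0.0608) and K4048 (0.128). Sgpl1 was lost without K3986 (0.108), K3961 (0.0514), P762 (0.0650), P780 (0.0620), K4028 (0.0670) and K4040 (0.0561). Sphk1 was lost without K3986 (0.127), K3961 (0.0521), P762 (0.0629), K4040 (0.0690) and K4048 (0.0546). St3gal5 was lost without K3986 (0.0680), P762 (0.0544) and K4040 (0.0639), and Smpd2 without K3986 (0.0688). Samd8, Sptlc2, Cers2, Acer2, Sphk2 and Spns2 passed in all 18 of these fits. All 11 differences kept their direction within flow cells 1 and 3. The 9 genes that rose differed there by 0.15 to 1.01 and by 0.37 to 1.14 on the log2(CPM + 1) scale. The ND side was 1 library (rat K4048) in flow cell 1. In flow cell 3 it was 2 libraries, of which that of rat K4040 is cross-tissue, so that neither is a firm check.

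**Figure D2:**
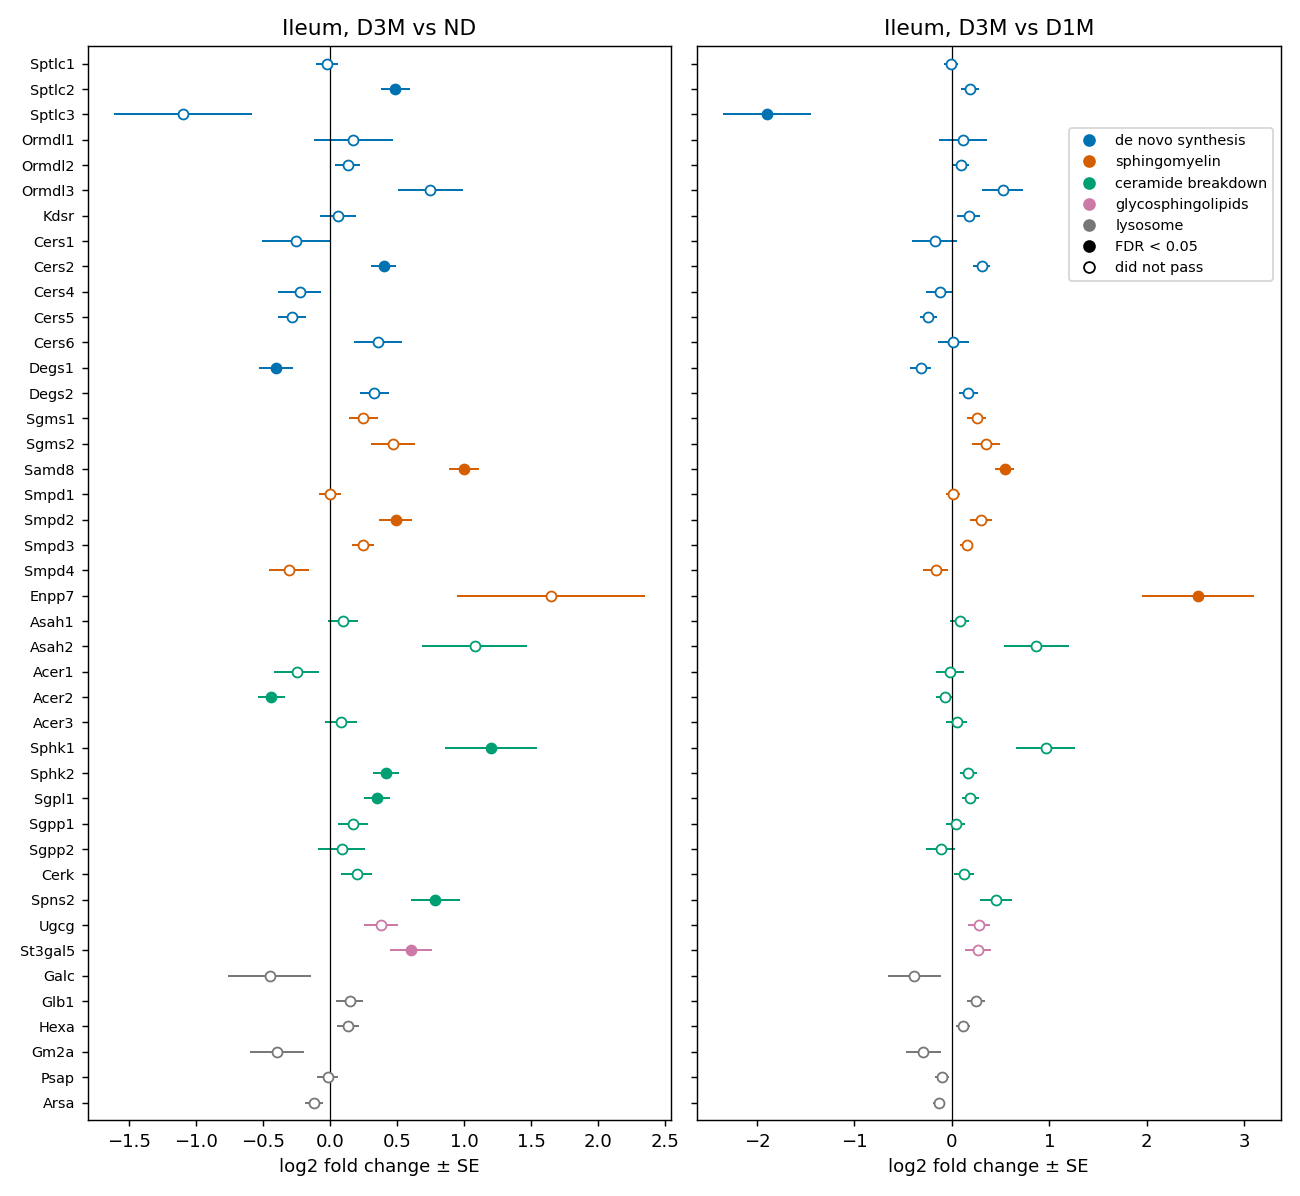
Log2 fold change (x axis) with its SE for the 42 genes tested in ileum (y axis), for D3M vs ND (left) and D3M vs D1M (right), coloured by step. Filled points passed FDR 0.05, 11 on the left and 3 on the right. Sptlc3 and Enpp7, which rest on few counts, have the widest errors on the right.

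D3M and D1M rats were close in age and differed in how long diabetes had lasted. Body weight was 472 to 575 g in D3M and 597 to 663 g in D1M rats. Fasting glucose was 165 to 330.6 mg/dl in D3M and 93.6 to 178.6 mg/dl in D1M. Age at onset was 57 to 85 days in D3M and 146 to 150 days in D1M. Effects of weight, glucose, onset age and litter cannot be told apart from duration here. Between D3M and D1M rats, transcripts of 3 of 42 genes passed in ileum (7.14%), against 2.22% of all genes tested. Samd8 and Enpp7 rose and Sptlc3 fell, against 1.93% of all genes that rose and 0.292% that fell. Sptlc3 was testable only through ND and D1M libraries, since 0 D3M libraries lay above the minimum of the filter on low counts. Its fall therefore adds no support to the share of 7.14%. Sptlc3 and Enpp7 had also been reported from these same data as changed between D3M and D1M, before the list was chosen. Their calls are therefore no independent support for that share. Another 15 of the 42 genes had an unadjusted p below 0.05 without passing, so that 18 did in all, 14 higher and 4 lower in D3M. These were 42.9% of the 42, against 19.1% of all genes. The median log2 fold change was 0.12 over the 42 genes and -0.04 over all genes. Enterocyte markers rose in 4 of 11 and ileal markers in 4 of 7, and their part was not tested.

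Samd8 rose by 0.54 on the log2 scale between D3M and D1M (1.46-fold, SE 0.10, edgeR FDR 0.0231), with the library values given with D3M and ND rats. It was lost without K3978 (FDR 0.0618), K3988 (0.0608), K3989 (0.0561) or K3961 (0.0562). Within flow cells 1 and 3 the difference was 0.38 and 0.83 on the log2(CPM + 1) scale.

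Enpp7 is the alkaline sphingomyelinase of the brush border that begins the digestion of sphingomyelin, on chromosome 10 from 108095131 to 108099483 in rn6. It was measured on few reads. The 6 ND ileum libraries held 74 counts (exact Poisson 95% interval 58.1 to 92.9, for counting error only), the D1M libraries 44 (32.0 to 59.1) and the D3M libraries 273 (242 to 307). The levels were 0.338, 0.591 and 1.16 CPM in ND, 0.101, 0.323 and 0.744 CPM in D1M and 0.456, 2.78 and 3.66 CPM in D3M. In D3M, 4 libraries lay between 2.44 and 3.66 CPM, whereas rats K3959 (16 counts) and P762 (7 counts) lay among the ND libraries. The log2 fold change was 2.53 (5.76-fold, SE 0.57, edgeR FDR 0.0349) against D1M and 1.65 (SE 0.70, edgeR FDR 0.127) against ND.

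The call of Enpp7 was lost in 9 of 18 fits that left out 1 library, those without K3978 (FDR 0.0839), K3987 (0.0515), K3988 (0.102), K3989 (0.0795), K3990 (0.0542), K3961 (0.0721), K3977 (0.0553), K3980 (0.0522) and P780 (0.0920). Its log2 fold change stayed between 2.27 and 2.86. Within flow cells 1 and 3 the D3M minus D1M difference was 1.31 and 0.79 on the log2(CPM + 1) scale. Over the 18 ileum libraries the genes most like Enpp7 in level were Lig3 (Pearson r = 0.907), Xpnpep1 (0.871), Fkbp10 (0.870), Lrrc8d (0.869) and Hdlbp (0.869), on the log2(CPM + 1) scale. These r are descriptions over libraries of 3 groups, and few counts underlie Enpp7.

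Sptlc3 is the subunit of serine palmitoyltransferase that favours shorter acyl chains than Sptlc2, on chromosome 3 from 132560506 to 132692737 in rn6. ND ileum libraries held 60 counts (exact Poisson 95% interval 45.8 to 77.2), D1M libraries 123 (102 to 147) and D3M libraries 35 (24.4 to 48.7). Of the 123 counts, 53 came from rat K3989 and 29 from rat K3988. The levels were 0.145, 0.503 and 0.951 CPM in ND, 0.418, 0.930 and 2.28 CPM in D1M and 0.212, 0.290 and 0.533 CPM in D3M, with overlap between all groups. Sptlc3 fell by 1.90 on the log2 scale between D3M and D1M (SE 0.45, edgeR FDR 0.0402), and its log2 fold change between D3M and ND was -1.10 (SE 0.52, edgeR FDR 0.165). It passed the filter on low counts through the ND and D1M libraries, since 0 D3M libraries lay above the CPM minimum of 0.529.

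The call of Sptlc3 was lost in 10 of 18 fits that left out 1 library, those without K3978 (FDR 0.0855), K3986 (0.0560), K3988 (0.105), K3989 (0.125), K3961 (0.0856), K3977 (0.0784), K3980 (0.0501), P762 (0.0534), P780 (0.0783) and K4038 (0.0528). The log2 fold change without K3989 was -1.56. Within flow cells 1 and 3 the difference was -0.83 and -0.34 on the log2(CPM + 1) scale. Among the genes most like Sptlc3 over the 18 ileum libraries were Rgs1 (Pearson r = 0.818), Pir (0.762), Ttc8 (0.731) and Jph1 (0.694), again as a description. Without the libraries of K3978, K3988, K3989 or K3961 no member passed between D3M and D1M. In these fits 0.152%, 0.0764%, 0.0459% and 0.168% of all genes were called. Without K3977, K3980 or P780 only Samd8 passed, with 1.17%, 1.11% and 0.564% of all genes called. Without ND rat K4048 the count was 5, with 4.07% of all genes called. The share of all genes was 2.22% with every library.

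**Figure D3:**
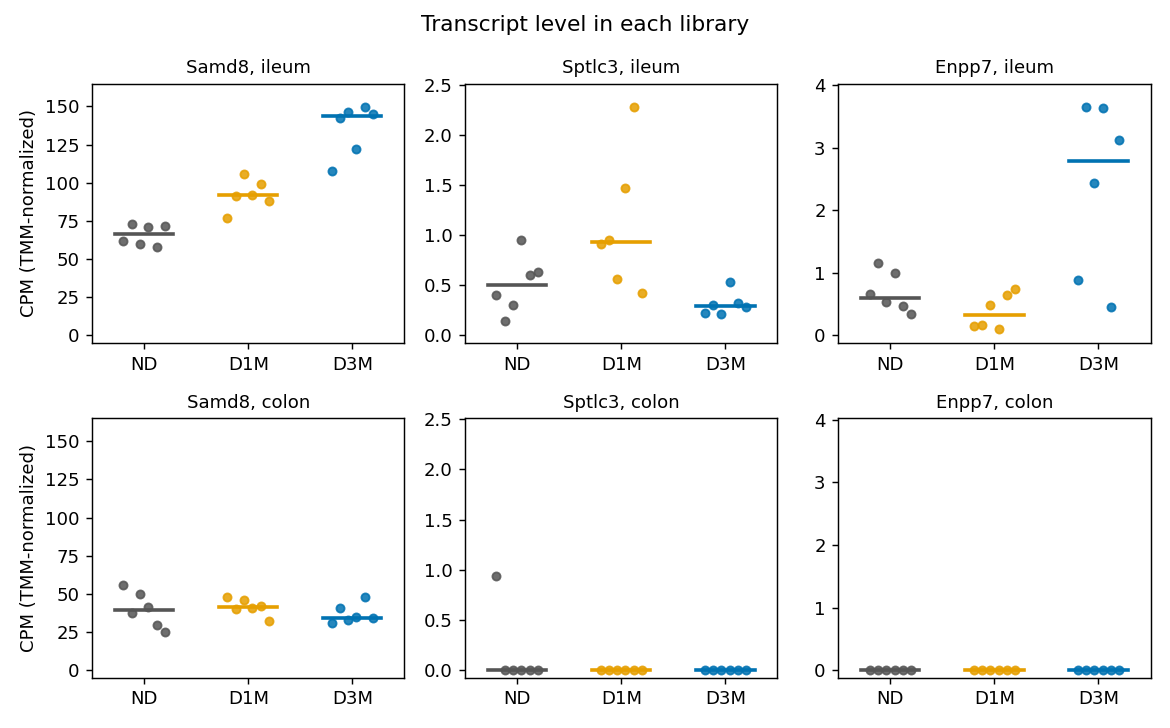
Level in each library (TMM-normalized CPM, y axis) of Samd8, Sptlc3 and Enpp7 in ileum (top) and colon (bottom) of ND, D1M and D3M rats, with 1 point per library, bars at group medians and the same scale for both tissues of a gene. Samd8 steps up from ND to D1M to D3M in ileum and overlaps in colon. Enpp7 has 0 counts in all 18 colon libraries, and Sptlc3 has counts in 1.

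Between D1M and ND rats 0 of 42 genes passed in ileum, against 0.0154% of all genes (0.00768% higher and 0.00768% lower), and 5 had an unadjusted p below 0.05 (11.9%, against 8.34% of all genes). DESeq2 called 1 of the 42 (Samd8, adjusted p 0.0193) and limma voom 0. Samd8 had a log2 fold change of 0.46 (1.37-fold, SE 0.10, edgeR FDR 0.339), and its D1M libraries all lay above its ND libraries. Acer2 had -0.36 (SE 0.09, edgeR FDR 0.339) and Sptlc2 0.30 (SE 0.10, edgeR FDR 0.436). The median over the 42 genes was 0.07, and -0.03 over all genes tested.

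In colon no sphingolipid gene passed between any pair of groups. The counts were 0 of 40 between D3M and ND, against 0.0155% of all 12906 genes tested, and 0 of 40 in the other pairs, where 0% of all genes passed. Sptlc3, Enpp7 and Cers3 were too low to be tested there. At an unadjusted p below 0.05 there were 4 of 40 genes for D3M against ND, 3 for D1M against ND and 0 for D3M against D1M. The shares over all genes were 10%, 4.66% and 5.28%, so that the first share of 10% equalled that of all genes. DESeq2 and limma voom also called 0 of the 40 in each pair. With only the libraries of D3M and ND in the model, 3 passed, of which Acer1 rose (log2 fold change 0.48, edgeR FDR 0.0462) and Gm2a and St3gal5 fell by 0.52 and 1.34 (edgeR FDR 0.0492 and 0.0455), with 2.5% of all genes called.

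Samd8 in colon had 24.98, 39.3 and 55.6 CPM in ND, 32.2, 41.2 and 47.9 CPM in D1M and 30.6, 34.4 and 47.9 CPM in D3M. The groups overlapped, and the D3M against ND change was 0.02 on the log2 scale with an interval of 2 SE from -0.32 to 0.36. Cers4, a ceramide synthase for chains of intermediate length, had the lowest FDR of the 40 genes (log2 fold change 0.54, SE 0.14, edgeR FDR 0.249). Smpd2 had -0.54 (SE 0.28) between D3M and ND, and -0.06 (SE 0.09) without the 2 cross-tissue libraries. Its ND level in colon was 144 CPM in rat K4028 and 34.2 to 46.0 CPM in the other 5 rats. Spns2 and St3gal5 likewise had -0.43 and -0.96 with, and -0.26 and -0.66 without, these libraries. Summed B cell markers were above 100 CPM in 2 ND (713 and 749 CPM), 1 D1M (946 CPM) and 2 D3M colon libraries (133 and 323 CPM). Their part in the colon values was not tested.

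The difference between the tissues in the D3M vs ND change was tested directly, by an interaction in 1 model over 36 libraries. It passed for 4 of 42 genes, all lower in colon, against 1.56% of all genes and 1.27% in that direction. The colon change minus the ileum change was -1.03 for Samd8 (SE 0.22, edgeR FDR 0.0159), -1.27 for Spns2 (SE 0.28, FDR 0.0237), -0.54 for Sphk2 (SE 0.14, FDR 0.0381) and -0.51 for Cers2 (SE 0.13, FDR 0.0454). Both tissues came from the same rats, and with the rat as a replicate block 0 of the 42 passed (Samd8 and Spns2 at FDR 0.143, Sphk2 at 0.222, Cers2 at 0.257). Without the 2 cross-tissue libraries, 0 passed as well (Samd8 -0.94 at FDR 0.0589, Spns2 -0.999 at 0.123, Sphk2 -0.45 at 0.184, Cers2 -0.41 at 0.239). In the D3M vs D1M change 0 of 42 genes and 0% of all genes differed between tissues. There 9 of the 42 had an unadjusted p below 0.05 (21.4%, against 8.31% of all genes), and DESeq2 and limma voom called 0.

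**Figure D4:**
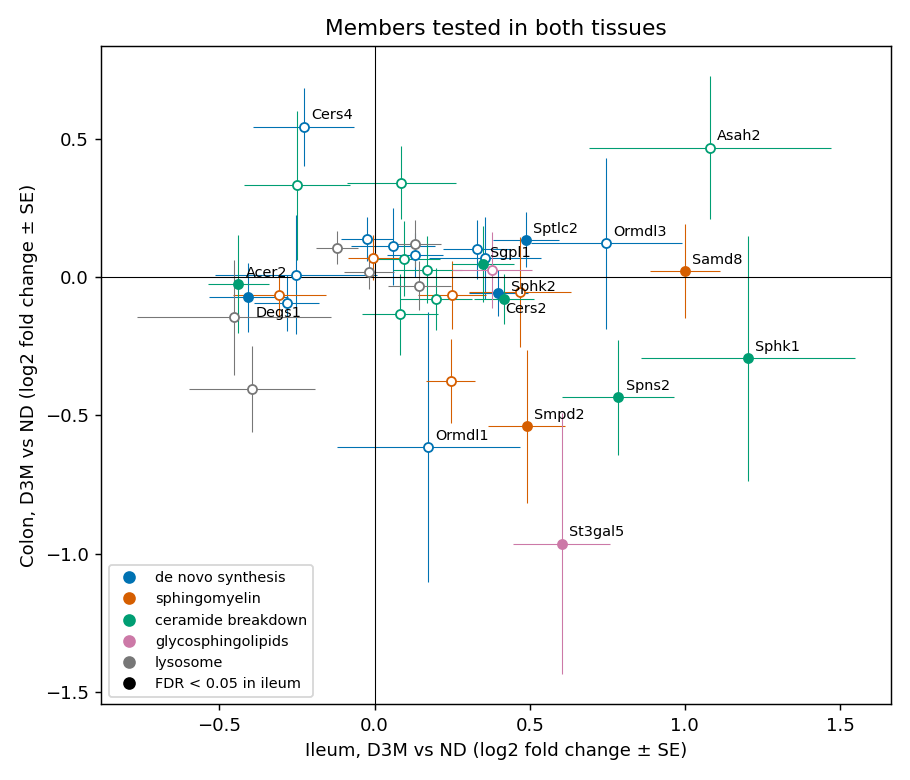
Change from ND to D3M in ileum (log2 fold, x axis) and in colon (y axis) for the 40 genes tested in both tissues, with SE bars, coloured by step, and filled where FDR was below 0.05 in ileum. The filled points spread from -0.44 to 1.20 along the ileum axis, and no gene passed in colon. St3gal5, at -0.96, lies lowest on the colon axis. The ND colon libraries include 1 cross-tissue library and 2 others with summed B cell markers above 100 CPM.

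Ileum and colon themselves differed in most sphingolipid genes. With groups and flow cells in the model, 33 of 42 genes passed (78.6%), 11 higher and 22 lower in colon, against 73.2% of all 13697 genes tested, of which 38.7% were higher and 34.5% lower in colon. The share called was near that of all genes. The median log2 fold change was -0.31 over the 42 genes, also with Enpp7 at its bound, and 0.03 over all genes. Enterocyte markers were lower in colon in 11 of 11 and smooth muscle markers higher in 6 of 7, and their part was not tested. Of 10 B cell markers 1 was lower in colon. The levels that follow are CPM normalized over all 36 libraries.

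Enpp7 had 391 counts in 18 ileum libraries, from 2 to 75 per library, and 0 in all 18 colon libraries. Taking 3 counts over all colon libraries as the most that a count of 0 allows, Enpp7 was at least 107-fold lower in colon relative to the library totals. Sptlc3 had 218 counts in ileum and 14 in colon, all 14 in the library of rat K4028 that held ileal RNA. Without that library, Sptlc3 was at least 56.0-fold lower in colon by the same reckoning. Outside that library, neither gene was detected in colon at this depth.

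Smpd2 had 232, 297 and 455 CPM in ileum (lowest, median, highest of 18) and 29.7, 36.04 and 136 CPM in colon, where the highest was rat K4028. No library of one tissue reached the range of the other, and Smpd2 was 7.66-fold lower in colon (log2 fold change -2.94, SE 0.15, edgeR FDR 1.42e-17). Spns2 had 39.9, 70.8 and 119 CPM in ileum and 6.78, 9.62 and 19.9 CPM in the colon libraries (log2 fold change -2.78, SE 0.14, edgeR FDR 1.29e-17). St3gal5 had 44.6, 72.9 and 96.0 CPM in ileum and 5.19, 7.93 and 28.1 CPM in the colon libraries (log2 fold change -2.65, SE 0.24, edgeR FDR 1.1e-11). Neither overlapped between tissues. Galc, the lysosomal enzyme that removes galactose from galactosylceramide of myelin and epithelia, went the other way. It had 0.437, 1.53 and 2.00 CPM in ileum and 2.72, 4.56 and 5.90 CPM in colon, again without overlap (log2 fold change 1.67, SE 0.13, edgeR FDR 3.22e-13).

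All 8 sphingomyelin genes passed, 6 lower in colon, against 73.2% of all genes that passed and 34.5% that were lower. Sgms2 was at -1.66, Samd8 at -1.34, Smpd3 at -1.30 and Sgms1 at -0.53 on the log2 scale, beside Enpp7 and Smpd2. Smpd1 and Smpd4 were higher at 0.26 and 0.17. In de novo synthesis 7 of 14 were lower and 3 higher in colon, against 34.5% and 38.7% of all genes. Ormdl3 (-1.60), Cers6 (-1.28), Cers2 (-1.09), Kdsr (-0.63), Degs2 (-0.46) and Sptlc2 (-0.43) were lower beside Sptlc3, and Cers4 (1.55), Degs1 (0.56) and Cers5 (0.42) were higher. Ceramide synthases differed between tissues in both directions. Among genes of ceramide breakdown 5 of 12 were lower, against 34.5% of all genes. Sphk2 was at -0.73, Sphk1 at -0.72, Sgpp1 at -0.53 and Asah1 at -0.35 beside Spns2, and Acer1 (0.82) and Asah2 (0.48) were higher. Ugcg (-0.92) was lower with St3gal5.

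In the lysosome all 6 passed, as did 73.2% of all genes. Hexa, a subunit of the hexosaminidase that degrades GM2, was higher in colon by 0.37, Psap, the precursor of the saposins, by 0.20, and Arsa, which removes sulphate from sulphatide, by 0.15 on the log2 scale. Glb1, a beta-galactosidase, was lower by a log2 fold change of -1.01, and Gm2a, the activator that presents GM2, by -0.26. In 18 of 18 rats the ileum exceeded the colon for Samd8, Smpd2, Smpd3, Sgms2, Spns2, St3gal5, Ugcg, Sphk2, Cers2, Cers6, Degs2, Kdsr, Ormdl3, Glb1 and Enpp7. In 18 of 18 rats the colon exceeded the ileum for Cers4, Degs1, Smpd1, Acer1, Galc and Hexa. The share of all genes that differed in 1 direction in 18 of 18 rats was not counted. The 9 genes that did not pass were Sptlc1, Ormdl1, Ormdl2, Cers1, Acer2, Acer3, Sgpl1, Sgpp2 and Cerk, with log2 fold changes from -0.25 to 0.07.

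**Figure D5:**
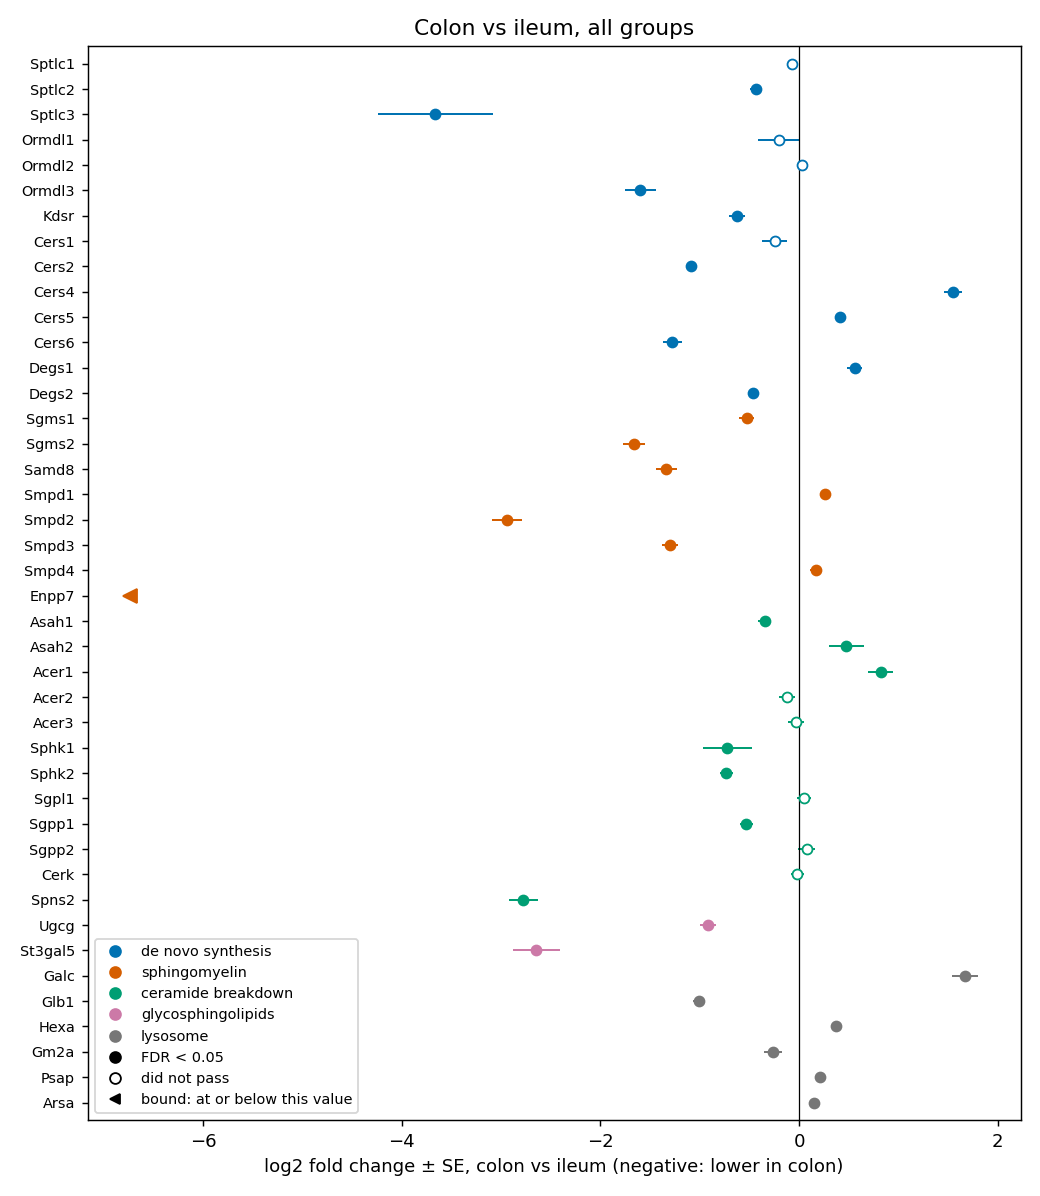
Log2 fold change of colon against ileum (x axis, negative where colon was lower) with SE for the 42 genes tested (y axis), coloured by step, filled where FDR was below 0.05. Enpp7 is drawn as an arrow at its bound of -6.74, because it had 0 counts in colon. Most sphingomyelin genes lie left of 0, and Galc and Cers4 lie farthest right.

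A further list of 50 genes that act next to these pathways was tested in the same models, and 46 of them matched the table. In ileum 7 of 41 tested rose between D3M and ND and 2 fell, against 8.31% of all genes that rose and 4.22% that fell. Their median log2 fold change of -0.10 was near that of all genes, -0.08. Without the 2 cross-tissue libraries 5 of 42 rose and 1 fell, with B4galt5 (FDR 0.108), Scarb2 (0.0779) and Hacd3 (0.0855) lost. Elovl1, which lengthens very long fatty acids, rose by 0.86 (SE 0.17, edgeR FDR 0.00535), and B4galt6 and B4galt5, the lactosylceramide synthases, rose by 0.80 and 0.45 (edgeR FDR 0.00557 and 0.0499). Gltp, a glycolipid transfer protein, rose by 0.78 (edgeR FDR 0.00366). Scarb2, a membrane protein of the lysosome, rose by 0.54 (edgeR FDR 0.0349). Plpp1, a lipid phosphate phosphatase, rose by 0.41 (edgeR FDR 0.0287). Hacd2 and Hacd3, dehydratases of fatty acid elongation, fell by 0.47 and 0.51 (edgeR FDR 0.0270 and 0.0295).

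Between D3M and D1M ileum, 2 of the 41 further genes rose (4.88%) and 0 fell, against 1.93% and 0.292% of all genes. B4galt6 rose by 0.66 (edgeR FDR 0.0283) and Elovl1 by 0.62 (edgeR FDR 0.0403). Between D1M and ND 0 of 41 passed in ileum, where 0.0154% of all genes did. In colon 0 of 42 passed in any pair of groups by edgeR, where at most 0.0155% of all genes did. Of 43 further genes, 13 were higher and 22 lower in colon than in ileum, so that 81.4% were called, near the 73.2% of all genes (38.7% higher and 34.5% lower). The D3M vs ND change differed between tissues for 1 of the 43, Fa2h, the fatty acid 2-hydroxylase (colon minus ileum 5.00, edgeR FDR 0.0354). Of its 426 ileal counts, 392 came from the cross-tissue library of ND rat K4040, and the other 17 ileum libraries held 0 to 5 each. Without the 2 cross-tissue libraries the difference was -0.078 (edgeR FDR 0.991), and 0 of the 43 passed. Elovl1 in colon had a log2 fold change of 0.07 between D3M and ND (edgeR FDR 0.908).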

How the data were processed

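Whole distal ileum and proximal colon were flash frozen, and poly-A RNA libraries were sequenced on a NextSeq 500. The authors aligned reads with STAR to the rn6 rat genome and counted them per annotated gene in SeqMonk, and the raw counts per gene are used here as deposited. Versions and the strand setting of counting are not given in the sources used here. A second table of log2 CPM and 36 columns of standard deviations were not used.

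Groups came from the sample titles. Genes were kept by filterByExpr of edgeR 4.0.16 (R 4.3.3), scaled by TMM and tested with the quasi-likelihood test, with group and flow cell as terms, in the 18 libraries of a tissue or in all 36. An FDR below 0.05 over all genes was called. SE is the absolute log2 fold change over the square root of F. The tissue difference is the colon change minus the ileum change. DESeq2 1.42.0 and limma 3.58.1 (voom), other scalings, filters and sample choices served as alternatives. The procedure was tested on simulated data. Promoters came from RefSeq (GRCr8), and gene positions are those of the rn6 table.

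Members and lists were chosen with earlier results of these data known. Members were given by library when they passed FDR 0.05 between groups within a tissue, or were among the 6 with the largest colon and ileum difference past FDR 0.05. Further genes were named when they passed between groups, and Fa2h was named after its value was seen. The 5 genes most like Enpp7 and Sptlc3 were found by Pearson r. In all, 1 further gene that passed and 1 gene like Sptlc3 are not reported here. Replicates are separate rats. The same rats gave both tissues. The correlation of a rat's deviations from the group means in ileum and colon ran from -0.596 to 0.805 over 12242 genes (median -0.0248), and 7 of 18 were over 0.1. Library totals of 10024041 to 21510043 counts limit precision for Enpp7, Sptlc3 and Sphk1, and count intervals cover counting error only.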

Additional observations from a re-analysis of the deposited data

Results flagged for a closer look

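Levels of 14 sphingolipid genes were checked in 79 groups of 6 libraries for a library far from the other 5, and 9 groups held one, where chance gives about 1 in 20. Of these, 4 were the colon sample of ND rat K4028. It had 0.942 CPM of Sptlc3 against 0 in the other 5, 170 CPM (169.9) of Cers2 against 118 to 132, 144 CPM of Smpd2 against 34.2 to 46.0, and 141 CPM (140.5) of Sphk2 against 105 to 112. Markers of ileal epithelium were also highest in this library. The part of the ileal RNA in these values was not tested.

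The ileum library of D1M rat K3986 had 8.39 CPM of Sphk1 against 1.97 to 3.67 in the other 5 D1M libraries, and 89.7 CPM of Spns2 against 53.2 to 65.8. Its B cell markers summed to 572 CPM, against 5.55 to 429 CPM in the other 5. Sptlc3 was at 0.533 CPM (11 counts) in the ileum of D3M rat K3980 against 0.212 to 0.326. In the colon of D1M rats, Acer2 was at 38.5 CPM in rat K3978 against 19.7 to 24.5, and St3gal5 at 30.1 CPM in rat K3989 against 5.501 to 10.7. B cell markers summed to 946 CPM in that colon library of rat K3989 and to 6.37 to 10.8 CPM in the other 5, which include rat K3978. In the ileum of rat K3980 they summed to 14.1 CPM. The part of B cells in these values was not tested.

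The D3M vs ND change differed between tissues, by the interaction test, for Samd8 (colon minus ileum -1.03), Spns2 (-1.27), Sphk2 (-0.54) and Cers2 (-0.51). These 4 calls were lost with the rat as a replicate block and without the 2 cross-tissue libraries.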

How the results depend on the processing

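Over 721 alternative fits of 51 results for single members, 629 kept direction and side of the threshold. Another 92 kept direction but did not pass, and 0 reversed. This total pools unlike results. The 33 differences between colon and ileum were each lost in at most 1 fit. Between D3M and ND ileum, losses ran from 0 of 28 fits (Samd8) to 17 of 28 (Degs1). Between D3M and D1M ileum, Samd8 was lost in 4 of 28, Enpp7 in 11 of 27 and Sptlc3 in 13 of 26. The 4 tissue differences were lost in 2 (Samd8, Spns2) to 7 (Cers2) of 9 fits. In ileum, the 11 members called between D3M and ND became 17 with DESeq2, 19 without the flow cell term, 1 with only the 2 groups compared, and 6 to 17 when 1 library was left out. The 3 called between D3M and D1M became 1 with limma voom and 0 to 5 when 1 library was left out. With only these 2 groups compared, Enpp7 (edgeR FDR 0.0642) and Sptlc3 (0.0515) were lost and Sphk1 (0.0261) was gained. Sphk1 also passed with DESeq2 (adjusted p 0.0278) and with a term for B cell markers (edgeR FDR 0.0301). Cers2 passed with DESeq2 (adjusted p 0.00696) and with a filter of 1 CPM in 6 libraries (edgeR FDR 0.0414). The 0 between D1M and ND became 1 with DESeq2, and the 0 in colon between D3M and ND became 3 with only the 2 groups compared. The 4 tissue differences in D3M vs ND became 8 with DESeq2, 7 without the flow cell term, 2 with RLE size factors, with a filter of 1 CPM in 6 libraries or with limma voom, and 0 without the 2 cross-tissue libraries. With the rat as a replicate block they became 0, and the 33 members that differed between tissues became 34. The block changed no call on tissue differences in D3M vs D1M. The cause of these moves was not tested. Over all genes, the ileum D3M vs ND count of 1632 became 3007 without the flow cell term and 185 with only the 2 groups. It was 675 without rat K3986 and 2174 without rat K3959. The D3M vs D1M count of 289 became 989 with DESeq2, 466 with a term for B cell markers and 189 without a filter. It was 6 without rat K3989 and 532 without rat K4048. The tissue difference count of 214 in D3M vs ND became 514 with DESeq2, 761 without the flow cell term, 85 with limma voom and 37 without the 2 cross-tissue libraries. The colon D3M vs ND count of 2 became 72 with DESeq2 and 315 with only the 2 groups, and the ileum D1M vs ND count of 2 became 44 with DESeq2. Chosen after seeing the data, the fit of the further genes without the 2 cross-tissue libraries moved the tissue difference of Fa2h from 5.00 to -0.078, where 392 of 426 ileal counts lay in 1 left-out library. Age cannot be told apart from diabetes in comparisons with ND rats. Enpp7 and Sptlc3 rest on few counts.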
